A study of Mus musculus with 8 samples.

Results

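Bone morphogenetic protein (BMP) signalling was described through 10 genes, chosen by name, of the 32285 genes in a single-cell RNA count table of neonatal mouse lung. The genes are the ligands Bmp2, Bmp4 and Bmp6, the receptors Bmpr2, Acvrl1 and Eng, the inhibitory SMADs Smad6 and Smad7, and the targets Id1 and Id3. All 10 were found in the table. BMP ligands bring together type II receptors such as BMPR2 and type I receptors such as ALK1 (the product of Acvrl1) or BMPR1A. These receptors phosphorylate SMAD1, SMAD5 and SMAD9, which enter the nucleus with SMAD4 and raise transcription of the Id genes and of Smad6 and Smad7, whose products damp the pathway. In lung endothelium the ALK1, endoglin and BMPR2 branch is known from its inherited mutations in hereditary haemorrhagic telangiectasia and pulmonary arterial hypertension in humans.

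The study used wild-type (WT in every library title) C57BL6/J mouse pups as a model of bronchopulmonary dysplasia, a lung disease that follows preterm birth. Of its 8 libraries, 4 came from hyperoxia pups, placed in 65% O2 from birth, and 4 from air pups, kept in 21% O2, and every pup of both groups had also been exposed to lipopolysaccharide before birth, at day 14 of gestation. Pups were 5 days old when their lungs were collected and cryopreserved, and after thawing, flow sorting enriched endothelium, epithelium and leukocytes. A droplet kit captured transcripts at the 3′ end and tagged each with a unique molecular identifier (UMI). In all, 77020720 UMIs were counted in 11806 cells, and the median cell had 4425 UMIs and 1815 genes.

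No label matched a cell to any of the 8 libraries. Hyperoxia was therefore not compared with air, no test was run, and all cells were read as 1 pooled sample. Barcodes ran in 8 stretches of alphabetical order, with 12 barcodes present in more than 1 stretch. A stretch is not known to be a library, and none was assigned to an oxygen group. Levels are given as CPM, the UMIs of a gene over all UMIs of the group on the usual scale, with exact Poisson 95% intervals. Folds carry exact conditional binomial 95% intervals and shares of cells exact binomial ones, all of which cover counting error only and not the spread between pups. Because these are pooled sums, fewer expressing cells and less RNA per cell cannot be told apart in a CPM value.

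Groups were set by UMI gates on genes that are not among the 10. The endothelium gate (Cdh5 and Cldn5 together at 2 UMIs or more) took 609 cells, with a median of 2758 UMIs against 4522 in the 11197 other cells. Inside it, cells that passed exactly 1 sub-gate were 160 Car4+Ednrb cells (genes that mark aerocyte capillaries), 46 Gja5+Bmx cells (arterial genes) and 204 Gpihbp1+Plvap+Aplnr cells (general capillary genes). Of all endothelial cells, sub-gated ones included, 44 had 2 or more UMIs of the lymphatic genes Prox1 and Mmrn1. The type I (AT1) and type II (AT2) alveolar epithelial gates took 124 and 723 cells. The leukocyte gates took 962 alveolar macrophages, 3454 monocytes and 612 T cells, and a gate on Dppa5a, a gene of pluripotent cells, took 293 cells (pluripotent-like in the plots). The other 5029 cells included 328 neutrophil-gated, 208 C1q macrophage-gated, 170 natural killer-gated and 150 B-gated cells. The 6 further endothelial markers (Pecam1, Egfl7, Tie1, Kdr, Ramp2 and Esam) summed to 4417 CPM in endothelium, against 63.1 CPM in all other cells. Material of other cell types was present in the groups: the surfactant transcript Sftpc stood at 3255 CPM in endothelium, and AT1-gated cells carried 16287 CPM of Sftpc and 2069 CPM of Dppa5a. Its part in the results below was not tested, except where a value without such cells is given.

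The genes lie on several chromosomes of the mouse build GRCm38 (mm10; GENCODE M21). Bmpr2 spans 59763400 to 59879014 of chromosome 1, plus strand. Chromosome 2 holds Eng (32646595 to 32682669), Bmp2 (133552159 to 133562885) and Id1 (152736251 to 152737410), all on the plus strand. Id3 lies on chromosome 4 (136143497 to 136145755, plus), Smad6 on chromosome 9 (63953076 to 64022059, minus), Bmp6 on chromosome 13 (38345107 to 38500302, plus), Bmp4 on chromosome 14 (46383520 to 46390669, minus) and Acvrl1 on chromosome 15 (101128522 to 101145336, plus).

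The promoters of 3 genes are shown, for a receptor and an inhibitory SMAD that were highest in endothelium and for a ligand shared between endothelium and alveolar epithelium. RefSeq promoter entries (GRCm38.p6) were used for 6 of the 10 genes, and for 3 of them the 250 bases before the start lay wholly outside the GENCODE gene. They are given 5′ to 3′ on the gene's strand, from chr2:32646345-32646594 (plus) for Eng, chr9:64022060-64022309 (minus) for Smad6 and chr14:46390670-46390919 (minus) for Bmp4. Capitals mark CAGAC or its reverse complement GTCTG, the core of the SMAD-binding element.
Eng: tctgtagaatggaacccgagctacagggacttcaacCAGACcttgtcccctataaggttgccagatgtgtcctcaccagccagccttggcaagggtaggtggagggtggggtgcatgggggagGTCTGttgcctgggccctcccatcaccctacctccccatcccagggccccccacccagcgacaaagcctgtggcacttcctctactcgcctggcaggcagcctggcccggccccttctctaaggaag
Smad6: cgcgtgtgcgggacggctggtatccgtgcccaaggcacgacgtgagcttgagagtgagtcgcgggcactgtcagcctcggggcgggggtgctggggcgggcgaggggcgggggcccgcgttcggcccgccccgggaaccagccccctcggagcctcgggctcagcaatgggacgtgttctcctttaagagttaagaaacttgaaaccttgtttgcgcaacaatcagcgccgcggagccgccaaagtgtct
Bmp4: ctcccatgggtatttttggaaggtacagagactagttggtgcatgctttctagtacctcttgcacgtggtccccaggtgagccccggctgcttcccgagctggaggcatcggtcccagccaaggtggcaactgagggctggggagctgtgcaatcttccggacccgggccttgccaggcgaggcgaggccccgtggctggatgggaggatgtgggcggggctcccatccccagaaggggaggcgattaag
The Eng window held 2 matches to CAGAC, starting 214 and 127 bases before the start, and the Smad6 and Bmp4 windows held 0. Among 32851 promoter windows of 250 bases, 42.2% held CAGAC on either strand. The other motifs searched on both strands were GGCGCC, known from BMP-responsive elements, the palindrome GTCTAGAC, and GGAA, the core bound by ETS factors. The first was found in 9.59% of windows, the second in 0.167% and the third in 93.4%, and none of the 3 printed windows held either of the first 2. None of these motifs contains another. A match is a run of letters and not a measured binding site.

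Endothelium carried the receptors, both inhibitory SMADs, Bmp4, Bmp6 and both Id genes at higher levels than the remaining cells of the table. With a minimum of 20 CPM on either side, 9 of the 10 genes could be compared, and all 9 were at least 4-fold higher in endothelium. Of all 8289 genes compared, 12.4% were at least 4-fold higher there and 7.21% at least 4-fold lower. The median log2 fold of the 9 genes was 3.65, against 0.23 over all genes compared. Of these 9, 5 passed the minimum only through their level in endothelium, so neither the count nor the median log2 fold carries much. Bmpr2, Smad7, Id1 and Id3 had 20 CPM or more in all other cells too. Each of the 9 was higher in endothelium in 5 of 5 stretches that held at least 20 endothelial cells.

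**Figure D1:**
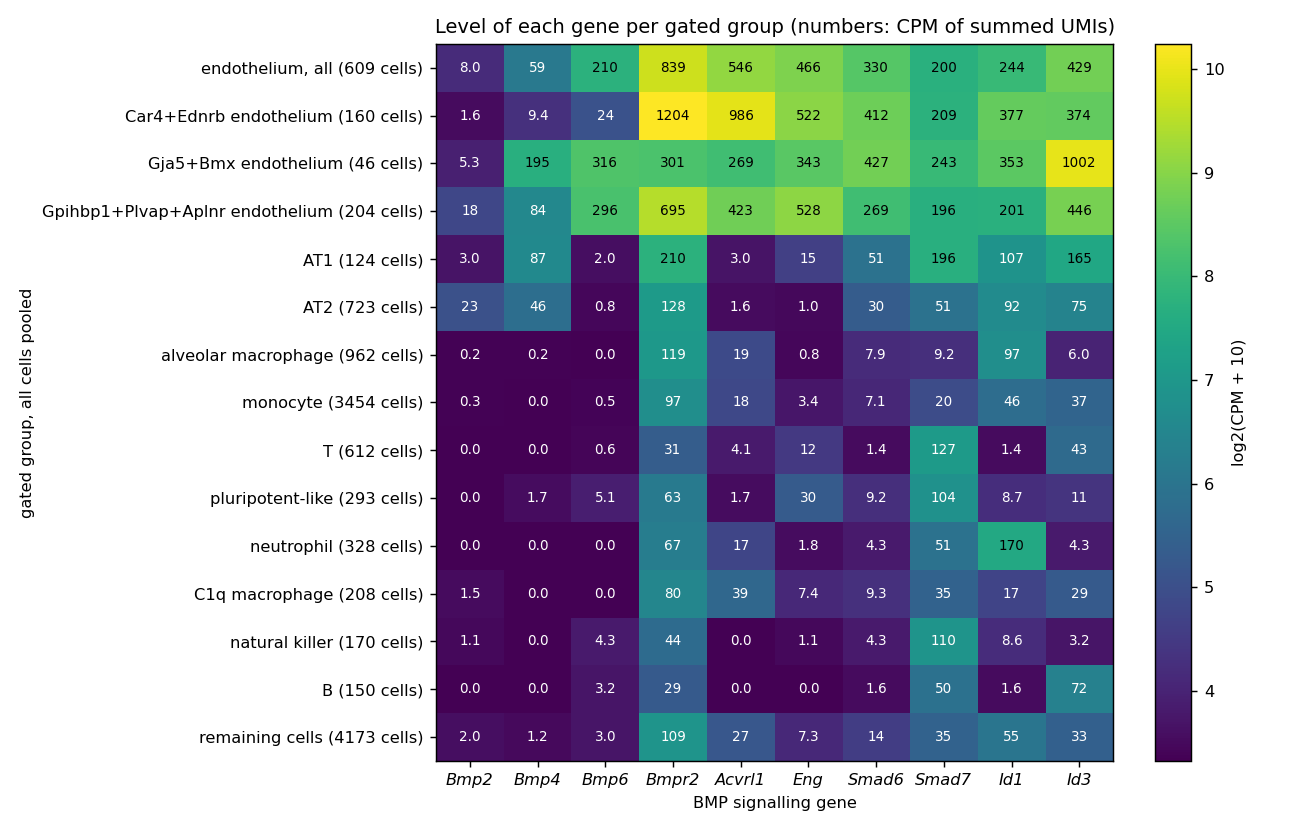
CPM of summed UMIs for each of the 10 genes (columns) in each gated group (rows), coloured by log2(CPM + 10). Of the rows drawn, Acvrl1 and Eng are high in those of endothelium and low in the others, Bmp6 likewise except in Car4+Ednrb cells (23.6 CPM), while Smad7 and the Id genes are spread over more groups.

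Among the ligands, Bmp6 was the most unequal between endothelium and the rest. BMP6 is a secreted ligand known, from the liver, for inducing hepcidin. It stood at 210 CPM (193 to 229) in endothelium, against 1.56 CPM (1.29 to 1.87) in all other cells, a 135-fold difference (110 to 167). Its log2 fold of 7.08 came to 6.11 with each cell weighted alike and to 6.20 with doubled gates, so the size of the difference depended on these choices. By stretch, Bmp6 was at 217, 236, 165, 195 and 217 CPM in endothelium, so that no stretch stood apart. The next group, the Dppa5a-gated cells, reached 5.08 CPM, and alveolar macrophages had 0 UMIs, which allows up to 0.348 CPM. At a fixed depth of 2000 UMIs per cell, which left out 182 of the 609 endothelial cells, Bmp6 was found in 23.0% of endothelial cells and in 0 of 591 T cells. Without thinning the shares were 27.8% of endothelial cells and 0.327% of T cells, whose median depth was 5000 UMIs.

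Bmp4, a ligand needed for branching of the embryonic lung, was shared between endothelium and alveolar epithelium. AT1-gated cells had 87.2 CPM (70.0 to 107), endothelium 59.1 CPM (49.9 to 69.5) and AT2-gated cells 46.5 CPM (40.7 to 52.9). AT1 stood above endothelium by a narrow gap between the intervals, and those of endothelium and AT2 overlapped. Among the leukocyte gates, alveolar macrophages had 2 UMIs of Bmp4, monocytes 1 UMI and all others 0. For T cells, with 4894277 UMIs in all, 0 allows up to 0.613 CPM. Bmp2, the closest relative of Bmp4, had only 194 UMIs in the table. Its level was highest in AT2-gated cells, at 22.8 CPM (18.8 to 27.5), followed by endothelium at 8.04 CPM (4.91 to 12.4). Within endothelium, Gpihbp1+Plvap+Aplnr cells had 17.9 CPM of Bmp2 (10.0 to 29.6), an interval that overlapped that of AT2. Car4+Ednrb and Gja5+Bmx cells had 1 UMI each. Against all other cells Bmp2 was 3.44-fold higher in endothelium, below the 20 CPM minimum and the 4-fold limit, and it was higher in 4 of 5 stretches.

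The 3 receptors of the set separated endothelium from other cells by different margins. Eng encodes endoglin, a co-receptor that presents ligand to ALK1. It stood at 466 CPM (439 to 493) in endothelium, against 6.36 CPM (5.80 to 6.96) in all other cells, a 73.2-fold difference (65.7 to 81.6). Acvrl1, encoding ALK1, stood at 546 CPM (518 to 576) in endothelium, against 18.0 CPM (17.0 to 19.0) in all other cells, a 30.4-fold difference (28.1 to 32.8). Bmpr2, the type II receptor, was found in every group and differed least, with 839 CPM (803 to 876) in endothelium, against 98.2 CPM (95.9 to 100.5) in all other cells. That made an 8.54-fold difference (8.13 to 8.97). Outside endothelium Bmpr2 ranged between 28.8 CPM in B-gated cells and 210 CPM in AT1-gated cells. At 2000 UMIs per cell, Acvrl1 was detected in 57.4% of endothelial cells, against 0.508% of T cells. Eng was detected in the same share of endothelial cells, 57.4%, against 1.69% of T cells, and Bmpr2 in 67.2%, against 4.74%. Without thinning these shares were 70.6%, 71.4% and 73.9% of endothelial cells, against 2.94%, 7.03% and 14.5% of T cells, for Acvrl1, Eng and Bmpr2 in that order.

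Leukocytes were not empty of Acvrl1. C1q macrophage-gated cells had 39.4 CPM (31.2 to 49.0), above the 19.2 CPM of alveolar macrophages and the 18.1 CPM of monocytes, whereas natural killer-gated cells had 0 UMIs, which allows up to 3.21 CPM. The 6 endothelial markers summed to 24.1 CPM in the C1q macrophage-gated cells, against 4417 CPM in endothelium, with Egfl7, Ramp2 and Esam at 0 UMIs, Tie1 and Kdr at 1 UMI each and Pecam1 at 47 UMIs. Eng was second highest in the Dppa5a-gated cells, at 30.0 CPM (24.9 to 35.8).

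Of the type I receptors, Acvrl1 and Bmpr1a split between endothelium and alveolar epithelium. Bmpr1a, the type I receptor for BMP2 and BMP4 and not one of the 10 genes, stood at 10.9 CPM in endothelium and 26.9 CPM in all other cells. Its level was 187 CPM in AT1-gated and 119 CPM in AT2-gated cells, where Acvrl1 was at 2.97 and 1.62 CPM. Of the summed UMIs of Acvrl1 and Bmpr1a, Acvrl1 held 98.1% (97.2% to 98.7%) in endothelium. By stretch this share lay between 93.9% and 99.7% over 5 stretches. In AT1-gated cells it was 1.56% (0.323% to 4.50%) and in AT2-gated cells 1.34% (0.582% to 2.63%), with the AT2 values of 8 stretches between 0% and 3.57%. C1q macrophage-gated cells resembled endothelium in this share, at 95.2% (88.3% to 98.7%), while T cells were at 9.90% (6.15% to 14.9%). Monocytes (78.2%), alveolar macrophages (60.4%) and neutrophil-gated cells (31.5%) lay between. A ratio of 2 genes within a group is set partly by how well each is captured, so only its differences between groups are read here.

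The 2 ligands best known for signalling through ALK1 had almost no UMIs. Gdf2, encoding BMP9, which is made mainly in the liver, had 0 UMIs of 77020720, which allows up to 0.0390 CPM, and Bmp10, a cardiac ligand, had 2 UMIs. Among the 10 other ligands listed, Bmp1 alone, a protease despite its name, reached 20 CPM in endothelium or in all other cells, with 76.8 CPM in endothelium and 48.6 CPM in all other cells, a 1.58-fold difference.

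Other genes of the pathway were higher in endothelium in part. Of 6 other receptors compared, Tgfbr3, the TGF-β co-receptor betaglycan, was past 4-fold, with 129 CPM in endothelium and 8.37 CPM in all other cells (15.5-fold, 13.5 to 17.7). Of 3 other SMADs, Smad5 was past it (85.2 CPM in endothelium, 14.6 CPM in all other cells), and none of 6 other regulators was. Fstl1 and Htra1, which encode secreted modulators, were 26.4-fold and 10.6-fold higher among 3 modulators compared. Of 5 other targets, 3 were past 4-fold. Tmem100, a transmembrane protein gene downstream of ALK1, had 689 CPM in endothelium and 1.14 CPM in all other cells (604-fold, 486 to 761). Hey1, a transcriptional repressor gene, had 47.0 CPM in endothelium and 0.335 CPM in all other cells, and Hes1 was 4.81-fold higher.

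Smad6 was highest in endothelium, and Smad7 was about as high in AT1-gated cells. SMAD6 mainly restrains BMP receptors, and SMAD7 restrains both BMP and TGF-β receptors. Smad6 had 330 CPM (308 to 353) in endothelium, against 11.1 CPM (10.3 to 11.9) in all other cells, a 29.8-fold difference (27.0 to 32.8). It was next highest in AT1-gated cells, at 50.6 CPM, and in AT2-gated cells, at 30.1 CPM, and lowest in T cells, at 1.43 CPM. Smad7 had 200 CPM (183 to 218) in endothelium, against 42.0 CPM (40.5 to 43.5) in all other cells, a 4.76-fold difference (4.32 to 5.23). AT1-gated cells had nearly the same Smad7 level as endothelium, 196 CPM (170 to 226), and the order of these 2 groups cannot be told from these counts. T cells (127 CPM), natural killer-gated cells (110 CPM) and Dppa5a-gated cells (104 CPM) came next for Smad7, and alveolar macrophages were lowest at 9.16 CPM. At 2000 UMIs per cell Smad6 was detected in 38.4% of endothelial cells, against 0.169% of T cells. Smad7 was detected in 31.4% of endothelial cells, against 24.0% of T cells, which express it, and 10.7% of neutrophil-gated cells, whose median depth was 4591.5 UMIs. The share of AT1-gated cells was 41.9% (32.8% to 51.4%), an interval that overlapped that of endothelium (27.0% to 36.0%). Unthinned, the shares were 52.2% of endothelial and 0.817% of T cells for Smad6, and 40.9% of endothelial, 59.7% of AT1-gated, 49.7% of T and 18.9% of neutrophil-gated cells for Smad7.

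The 2 Id genes, which encode inhibitors of basic helix-loop-helix factors and are classic BMP targets, were both highest in endothelium, and some leukocyte groups had mainly the one or mainly the other. Id1 had 244 CPM (225 to 264) in endothelium, against 54.4 CPM (52.7 to 56.1) in all other cells, a 4.48-fold difference (4.11 to 4.88). Id3 had 429 CPM (404 to 456) in endothelium, against 34.2 CPM (32.9 to 35.6) in all other cells, a 12.5-fold difference (11.7 to 13.5). Neutrophil-gated cells had 170 CPM of Id1 (150 to 191) and 4.28 CPM of Id3 (1.72 to 8.81). Alveolar macrophages showed the same pattern, with 96.6 CPM of Id1 (between 7.69 and 168 CPM over 8 stretches) and 6.03 CPM of Id3. T cells were the opposite, with 1.43 CPM of Id1 (0.575 to 2.95) and 42.9 CPM of Id3 (37.3 to 49.1), as were B-gated cells, with 1.60 CPM of Id1 and 72.0 CPM of Id3. Monocytes, the largest leukocyte group, had both, with 45.6 CPM of Id1 and 36.6 CPM of Id3. In this gate the 5 neutrophil markers summed to 13098 CPM, the 6 alveolar macrophage markers to 409 CPM and the 6 T markers to 137 CPM. Their part in the 2 Id levels was not tested.

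Of the UMIs of Id1 and Id3 together, Id1 held 97.5% (95.01% to 99.0%) in neutrophil-gated cells, 94.1% (92.4% to 95.6%) in alveolar macrophages, 3.23% (1.31% to 6.53%) in T cells and 2.17% (0.0550% to 11.5%) in B-gated cells. Endothelium lay between, at 36.2% (33.9% to 38.6%), as did C1q macrophage-gated cells at 36.6% (26.8% to 47.2%) and monocytes at 55.5% (53.2% to 57.8%). The alveolar macrophage share was between 90.2% and 100% in 7 stretches and the T cell share between 0% and 7.14% in 6, so neither extreme rested on 1 stretch. The monocyte share varied more, between 41.5% and 80.5% in 8 stretches. At 2000 UMIs per cell Id1 was detected in 30.4% of endothelial cells, against 20.4% of neutrophil-gated cells, 16.2% of AT1-gated cells, 15.5% of alveolar macrophages and 0.508% of T cells. Id3 was detected in 44.7% of endothelial cells, against 26.5% of AT1-gated, 15.1% of B-gated, 9.81% of T and 1.34% of neutrophil-gated cells. T cells for Id1 and neutrophil-gated cells for Id3 were taken to stand for the background of free RNA. They were not the lowest groups, since Id1 was found in 0 of 119 B-gated cells and Id3 in 0 of 154 natural killer-gated cells. The unthinned shares were 41.2% of endothelial and 1.14% of T cells for Id1, and 54.7% of endothelial and 2.13% of neutrophil-gated cells for Id3.

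**Figure D2:**
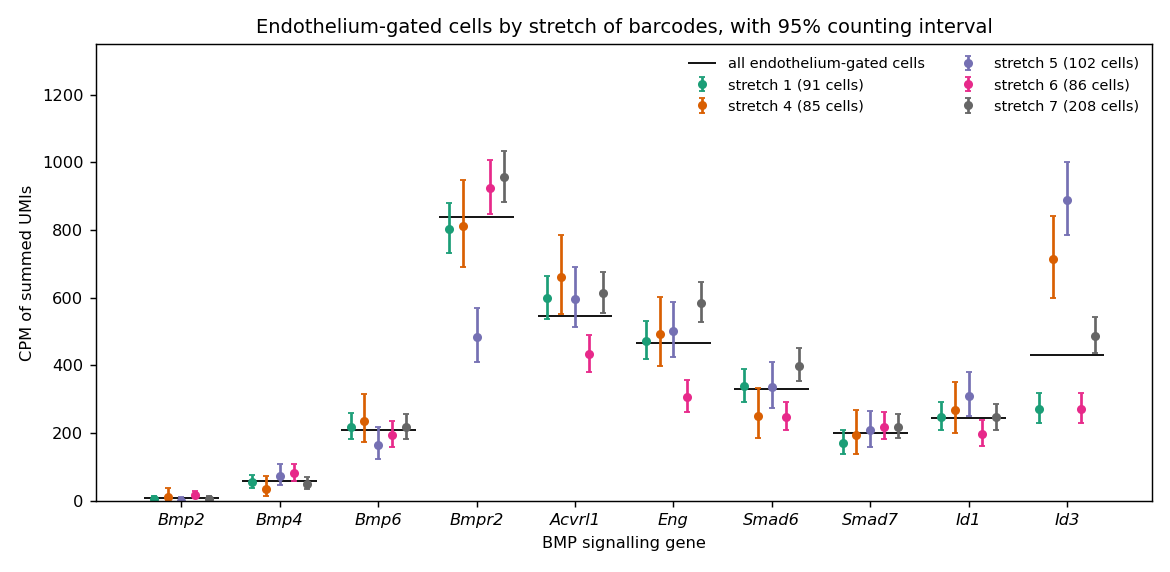
CPM of each gene in the endothelium-gated cells of the 5 stretches with at least 20 such cells (coloured points, exact Poisson 95% intervals) and in all of them (black line). Id3 is spread widest among the well-counted genes, between 272 and 888 CPM, and Bmp6 and Smad7 are spread little.

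Within endothelium Bmp6 and Smad7 were spread little over the 5 stretches, and Id3 was spread widest among the well-counted genes. On fewer UMIs, Bmp4 lay between 35.9 and 81.4 CPM and Bmp2 between 0 and 15.9 CPM. Id3 had 272, 713, 888, 272 and 488 CPM in stretches 1, 4, 5, 6 and 7, against Id1 values of 248, 267, 310, 198 and 246 CPM. The immediate early gene Fos, which rises within minutes of tissue handling, had 784, 1324, 1261, 717 and 920 CPM in the same stretches, so the stretches high in Id3 were also those high in Fos. Its part in the Id3 values was not tested. Bmpr2 was low in stretch 5, at 485 CPM, against 803 to 956 CPM in the other 4, and Eng was low in stretch 6, at 308 CPM, against 472 to 585 CPM in the other 4. What sets these stretches apart was not tested.

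Endothelial cells with an Id1 UMI held Id3, Smad6 and Smad7 UMIs more often than endothelial cells without one. At 2000 UMIs per cell, Id3 was detected in 64.6% (55.8% to 72.8%) of 130 cells with an Id1 UMI, against 36.0% (30.6% to 41.8%) of 297 cells without. Smad6 was detected in 55.4% (46.4% to 64.1%) of cells with Id1, against 31.0% (25.8% to 36.6%) of cells without. Smad7 was detected in 46.9% (38.1% to 55.9%) of cells with Id1, against 24.6% (19.8% to 29.9%) of cells without. At 1000 UMIs per cell, with all 609 cells kept, Id3 and Smad7 kept separate intervals and Smad6 did not, at 33.3% with Id1 and 25.9% without. Among the Gpihbp1+Plvap+Aplnr cells alone, Id3 was found in 29 of 42 cells with Id1 (52.9% to 82.4%), against 49 of 116 without (33.1% to 51.8%), while the Smad6 and Smad7 intervals overlapped. Among Car4+Ednrb cells Id3 was found in 24 of 44 cells with Id1, against 24 of 60 without, with overlapping intervals for all 3 genes. Lymphatic-gated cells, which are part of these cells, were low at 2000 UMIs in Id1 (9.38%), Id3 (25.0%), Smad6 (6.25%) and Smad7 (9.38%). The part of such cells and of the stretches was not tested. No such comparison is given for all genes, so these shares are not set apart from those of other genes. Cells are not replicates, and the shares describe these cells only.

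Capillary cells of the Car4+Ednrb gate differed from Gpihbp1+Plvap+Aplnr cells in the ligands first of all. Of 9 genes with 20 CPM or more in either, Acvrl1 was at least 2-fold higher in Car4+Ednrb cells and Bmp4 and Bmp6 were at least 2-fold lower. Of all 8077 genes compared, 12% were at least 2-fold higher and 12.6% at least 2-fold lower, so the number of genes apart was near that background. The median log2 fold of the 9 was 0.09, against -0.06 over all genes compared.

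Bmp6 had 23.6 CPM (13.2 to 38.9) in Car4+Ednrb cells, against 296 CPM (261 to 336) in Gpihbp1+Plvap+Aplnr cells, 12.6-fold lower (7.47 to 22.8). Counted by stretch, Car4+Ednrb cells had 1, 0, 7 and 1 UMIs of Bmp6 in stretches 1, 5, 6 and 7, and Gpihbp1+Plvap+Aplnr cells had 61, 19, 28 and 78 UMIs in stretches 1, 4, 5 and 7. Bmp4 had 9.43 CPM (3.46 to 20.5) in Car4+Ednrb cells, against 83.6 CPM (65.2 to 106) in Gpihbp1+Plvap+Aplnr cells, 8.87-fold lower (3.88 to 25.0). Bmp2 followed the same direction on few counts, with 1 UMI in Car4+Ednrb cells and 15 UMIs in Gpihbp1+Plvap+Aplnr cells, and without stretch 6 its log2 fold was -0.88, against -3.51. The log2 fold of Bmp6 lay between -4.33 with doubled gates and -2.94 with cells of several sub-gates included, and that of Bmp4 was -2.41 with each cell weighted alike, against -3.65 and -3.15. Both called ligands were lower in Car4+Ednrb cells in 3 of 3 stretches with 20 or more cells of each gate.

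Receptors, inhibitors and targets were higher or close to level. Markers of other cell types moved with this comparison. The 5 neutrophil markers summed to 1394 CPM in Car4+Ednrb cells (Mmp8 at 0), against 53.8 CPM in Gpihbp1+Plvap+Aplnr cells (Mmp8 and Cxcr2 at 0). The 6 AT1 markers summed to 802 CPM in Car4+Ednrb cells, against 203 CPM in Gpihbp1+Plvap+Aplnr cells (Aqp5 at 0). The 6 alveolar macrophage markers summed to 343 CPM in Car4+Ednrb cells (Krt79 at 0), against 25.1 CPM in Gpihbp1+Plvap+Aplnr cells (Ear1 and Krt79 at 0). The 4 natural killer markers summed to 58.2 CPM in Car4+Ednrb cells, against 1.19 CPM in Gpihbp1+Plvap+Aplnr cells (Ncr1, Gzma and Prf1 at 0). The 6 pluripotent markers summed to 322 CPM in Car4+Ednrb cells, against 129 CPM in Gpihbp1+Plvap+Aplnr cells. Without cells that passed several gates, the log2 fold of Acvrl1 was 1.37 and that of Bmp6 -3.51. Without endothelial cells rich in S100a8 and S100a9, the log2 fold of Acvrl1 was 1.23 and that of Bmp6 -3.62. Acvrl1 had 986 CPM (910 to 1066) in Car4+Ednrb cells, against 423 CPM (380 to 469) in Gpihbp1+Plvap+Aplnr cells, a 2.33-fold difference (2.04 to 2.66) seen in 3 of 3 stretches. Leaving out stretch 7 took its log2 fold to 0.96, against 1.22 with it and a limit of 1. Bmpr2 had 1204 CPM in Car4+Ednrb cells, against 695 CPM in Gpihbp1+Plvap+Aplnr cells (1.73-fold, 1.55 to 1.93). Id1 had 377 CPM in Car4+Ednrb cells, against 201 CPM in Gpihbp1+Plvap+Aplnr cells (1.88-fold, 1.54 to 2.30). Smad6 had 412 CPM in Car4+Ednrb cells, against 269 CPM in Gpihbp1+Plvap+Aplnr cells (1.53-fold, 1.28 to 1.84). Without stretch 1 the log2 fold of Smad6 was 1.01, against 0.62 with it. Eng (522 CPM in Car4+Ednrb cells, 528 CPM in Gpihbp1+Plvap+Aplnr cells) and Smad7 (209 CPM and 196 CPM in the same order) had folds of 0.988 (0.855 to 1.14) and 1.07 (0.842 to 1.35). Id3 had 374 CPM in Car4+Ednrb cells, against 446 CPM in Gpihbp1+Plvap+Aplnr cells, and the Id1 share of the Id pair was 50.2% in Car4+Ednrb cells, against 31.1% in Gpihbp1+Plvap+Aplnr cells.

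**Figure D3:**
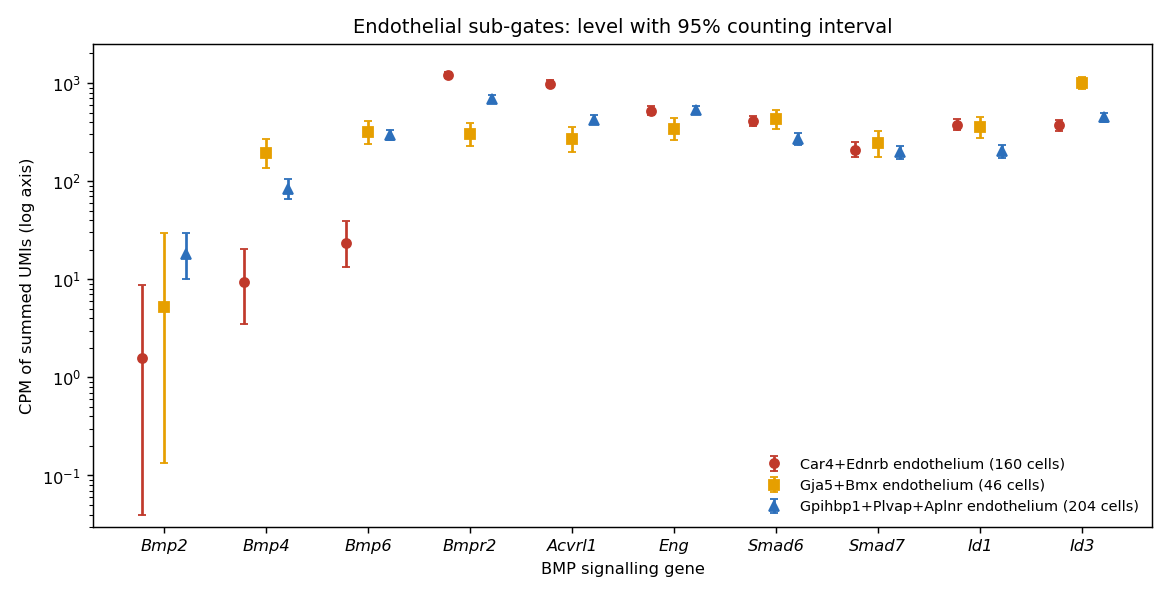
CPM on a log axis for the 10 genes in Car4+Ednrb (red circles), Gja5+Bmx (orange squares) and Gpihbp1+Plvap+Aplnr (blue triangles) endothelial cells, with exact Poisson 95% intervals. Bmp4 and Bmp6 are lowest in Car4+Ednrb cells, Acvrl1 and Bmpr2 are highest there, and Id3 is highest in Gja5+Bmx cells.

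The further BMP list held genes past 2-fold in both directions. Smurf2 encodes a ubiquitin ligase that targets BMP and TGF-β receptors with SMAD7. It had 744 CPM in Car4+Ednrb cells, against 237 CPM in Gpihbp1+Plvap+Aplnr cells, a 3.14-fold difference (2.66 to 3.73), and was the only one of 6 other regulators past 2-fold. From the list of other ligands only Bmp1, which encodes a protease, was compared. It had 134 CPM in Car4+Ednrb cells and 62.1 CPM in Gpihbp1+Plvap+Aplnr cells, but was higher in only 1 of 3 stretches. Of 5 other receptors compared, Acvr2a, a type II receptor, was past 2-fold, with 140 CPM in Car4+Ednrb cells and 65.7 CPM in Gpihbp1+Plvap+Aplnr cells. Fstl1, a secreted BMP antagonist, was lower in Car4+Ednrb cells, with 127 CPM there and 431 CPM in Gpihbp1+Plvap+Aplnr cells. None of the 3 other SMADs compared (Smad1, Smad5, Smad4) was past 2-fold. Tmem100, a target of ALK1, had 884 CPM in Car4+Ednrb cells and 803 CPM in Gpihbp1+Plvap+Aplnr cells, against 1.14 CPM in all cells outside endothelium. Of the other targets compared, Hey1 alone differed, with 1 UMI in Car4+Ednrb cells and 35 UMIs in Gpihbp1+Plvap+Aplnr cells.

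The 46 Gja5+Bmx cells held 189578 UMIs, the fewest of the 3 sub-gates, and no stretch held 20 of them. Against Gpihbp1+Plvap+Aplnr cells, Bmp4 and Id3 were at least 2-fold higher and Bmpr2 at least 2-fold lower among 9 genes compared. Of all 8459 genes compared, 15.5% were at least 2-fold higher and 17.4% at least 2-fold lower, so 3 of 9 is close to the background. Id3 had 1002 CPM (865 to 1155) in Gja5+Bmx cells, against 446 CPM (402 to 493) in Gpihbp1+Plvap+Aplnr cells, a 2.25-fold difference (1.88 to 2.69). Bmp4 had 195 CPM (137 to 269) in Gja5+Bmx cells, against 83.6 CPM in Gpihbp1+Plvap+Aplnr cells, a 2.33-fold difference (1.52 to 3.52). Without stretch 1 the log2 fold of Bmp4 was 0.24, and without stretch 6 it was 1.82, against 1.22 with all stretches. Bmpr2 had 301 CPM (228 to 390) in Gja5+Bmx cells, against 695 CPM (640 to 754) in Gpihbp1+Plvap+Aplnr cells, 2.31-fold lower (1.76 to 3.09). With the gate thresholds doubled its log2 fold was -0.57, against -1.21. Without stretch 7 Bmp4 alone stayed past 2-fold, since Id3 and Bmpr2 came to log2 folds of 0.97 and -0.94, and without stretch 5 that of Id3 was 0.85.

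Bmp6 was level between these gates, with 316 CPM in Gja5+Bmx cells and 296 CPM in Gpihbp1+Plvap+Aplnr cells. Id1 had 353 CPM in Gja5+Bmx cells, against 201 CPM in Gpihbp1+Plvap+Aplnr cells, a 1.76-fold difference (1.31 to 2.35). Beside the Id genes, the 12 immediate early and heat shock genes listed summed to 12507 CPM in Gja5+Bmx cells, against 5856 CPM in Gpihbp1+Plvap+Aplnr cells, with Fos at 3059 and 615 CPM in the same order. Their part in the Id values was not tested. The 5 neutrophil markers summed to 11763 CPM in Gja5+Bmx cells, against 53.8 CPM in Gpihbp1+Plvap+Aplnr cells. Without the 1 Gja5+Bmx cell that had 3% or more of its UMIs in S100a8 and S100a9, the log2 fold of Id3 was 1.24, against 1.17 with it, and that of Id1 0.88, against 0.82. The 7 fibroblast and mural markers summed to 148 CPM in Gja5+Bmx cells (Col1a1, Dcn and Pdgfra at 0), against 15.5 CPM in Gpihbp1+Plvap+Aplnr cells, and their part was not tested. Of the further BMP list, Htra1, a protease that degrades and antagonizes TGF-β family ligands, had 480 CPM in Gja5+Bmx cells, against 8.36 CPM in Gpihbp1+Plvap+Aplnr cells, a 57.4-fold difference (26.8 to 147). Fstl1 had 1250 CPM in Gja5+Bmx cells, against 431 CPM in Gpihbp1+Plvap+Aplnr cells. The third modulator compared, Twsg1, was lower on 2 UMIs in Gja5+Bmx cells and 23 UMIs in Gpihbp1+Plvap+Aplnr cells (ratio 0.384, 0.0439 to 1.55). Of 4 other receptors, Tgfbr3 was 3.46-fold lower (36.9 CPM in Gja5+Bmx cells, 128 CPM in Gpihbp1+Plvap+Aplnr cells). Of 6 other regulators, Tob1, an antiproliferative gene, was 4.12-fold higher on 14 and 15 UMIs. Tmem100 was 3.38-fold lower, with 237 CPM in Gja5+Bmx cells and 803 CPM in Gpihbp1+Plvap+Aplnr cells, and Smad1 and Smad5 were 2.69-fold and 2.75-fold lower on 9 and 7 UMIs. Of 7 other targets compared, 4 were past 2-fold higher: Id2 (485 CPM in Gja5+Bmx cells, 177 CPM in Gpihbp1+Plvap+Aplnr cells), Hey1 (169 CPM and 41.8 CPM in the same order), Msx1 (9 UMIs and 4 UMIs) and Hey2. Hey2, a Notch and BMP target of arteries, had 17 UMIs in Gja5+Bmx cells and 0 UMIs in Gpihbp1+Plvap+Aplnr cells, at least 25.0-fold higher.

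The 44 lymphatic-gated cells had lower Bmpr2 and Acvrl1 levels than endothelium taken whole, of which they are part. Bmpr2 was at 220 CPM (158 to 298) and Acvrl1 at 188 CPM (131 to 261), against 839 and 546 CPM in all endothelium, and Smad6 was at 69.7 CPM (37.1 to 119), against 330 CPM. Eng was at 354 CPM (274 to 450) in lymphatic-gated cells, against 466 CPM (439 to 493) in all endothelium, and these intervals overlapped. Bmp6 was at 42.9 CPM (18.5 to 84.5) in lymphatic-gated cells, against 210 CPM in all endothelium.

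In the alveolar epithelium Smad7 and Id3 were higher in AT1-gated cells and Bmp2 was lower. Among 7 genes compared, Smad7 and Id3 were at least 2-fold higher in AT1 than in AT2 and Bmp2 at least 2-fold lower. Of all 7925 genes compared, 26.1% were at least 2-fold higher and 8.43% at least 2-fold lower, so the count of higher genes is near the background. The median log2 fold of the 7 was 0.75, against 0.49 over all genes compared.

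Smad7 had 196 CPM (170 to 226) in AT1-gated cells, against 50.7 CPM (44.7 to 57.4) in AT2-gated cells, a 3.87-fold difference (3.20 to 4.68). The 6 pluripotent markers summed to 2279 CPM in AT1-gated cells, against 71.0 CPM in AT2-gated cells, and without cells that also passed the Dppa5a gate the log2 fold of Smad7 was 2.14, against 1.95 with them. In stretches 1 and 6, the 2 with 20 or more AT1-gated cells, Smad7 was at 252 and 179 CPM in AT1, against 67.1 and 62.3 CPM in AT2 of the same stretches. Bmp2 had 3 UMIs (2.97 CPM) in AT1-gated cells, against 113 UMIs (22.8 CPM) in AT2-gated cells, 7.68-fold lower (2.56 to 37.8). Its log2 fold of -2.94 was -2.21 with doubled gates and -3.89 without cells of several gates. Id3 had 165 CPM (140 to 192) in AT1-gated cells, against 74.8 CPM (67.4 to 82.8) in AT2-gated cells, a 2.20-fold difference (1.82 to 2.65). That value leaned on stretch 1, where AT1-gated cells had 318 CPM, against 104 CPM in stretch 6, and without stretch 1 the log2 fold was 0.50, against 1.14 with it. Id1 did not separate the types, with 107 CPM (87.8 to 129) in AT1 and 92.2 CPM (83.9 to 101) in AT2, and its log2 fold was 0.22 with stretch 1 and -0.58 without it. Bmp4 had 87.2 CPM in AT1 and 46.5 CPM in AT2 (1.88-fold, 1.45 to 2.41). With doubled gates the log2 fold of Bmp4 was 1.52, past the 2-fold limit, against 0.91. Bmpr2 had 210 CPM in AT1 and 128 CPM in AT2 (1.65-fold, 1.40 to 1.93). Eng had 15 UMIs in AT1-gated cells and 5 UMIs in AT2-gated cells, where 8 AT1-gated cells also passed the Dppa5a gate. Without those cells its log2 fold was 2.61, against 3.88 with them.

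The wider BMP list held genes that were higher and genes that were lower in AT1. All 3 genes compared from the list of other ligands were lower in AT1, unlike Bmp4. The ligand gene Bmp5 had 11.9 CPM in AT1 and 77.4 CPM in AT2, and Bmp3 had 2 UMIs in AT1 and 119 UMIs in AT2. Bmp1, which encodes a protease, had 74.4 CPM in AT1 and 547 CPM in AT2. Among the genes of secreted modulators, Fstl3, Fstl1 and Htra1 were 10.1-fold, 5.42-fold and 5.93-fold higher in AT1, and Twsg1 was 1.83-fold higher. Smad9, a receptor-activated SMAD of the pathway, had 39.7 CPM in AT1 and 4.85 CPM in AT2, an 8.17-fold difference (4.81 to 14.2), whereas Smad1, Smad5 and Smad4 stayed within 2-fold. The pseudoreceptor gene Bambi was lower in AT1, with 5 UMIs there and 162 UMIs in AT2. Of 8 other receptors compared, Tgfbr3 (28.8 CPM in AT1, 2.83 CPM in AT2) and Acvr2b (30.7 CPM in AT1, 12.9 CPM in AT2) were past 2-fold higher and Bmpr1b (5.95 CPM in AT1, 31.3 CPM in AT2) past 2-fold lower. Of 3 other targets, Sgk1, a kinase gene, was 2.73-fold higher. Id2, a further Id gene, was 5.30-fold lower, with 88.2 CPM in AT1 and 467 CPM in AT2. Each of these called genes had the same direction in 2 of 2 stretches.

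**Figure D4:**
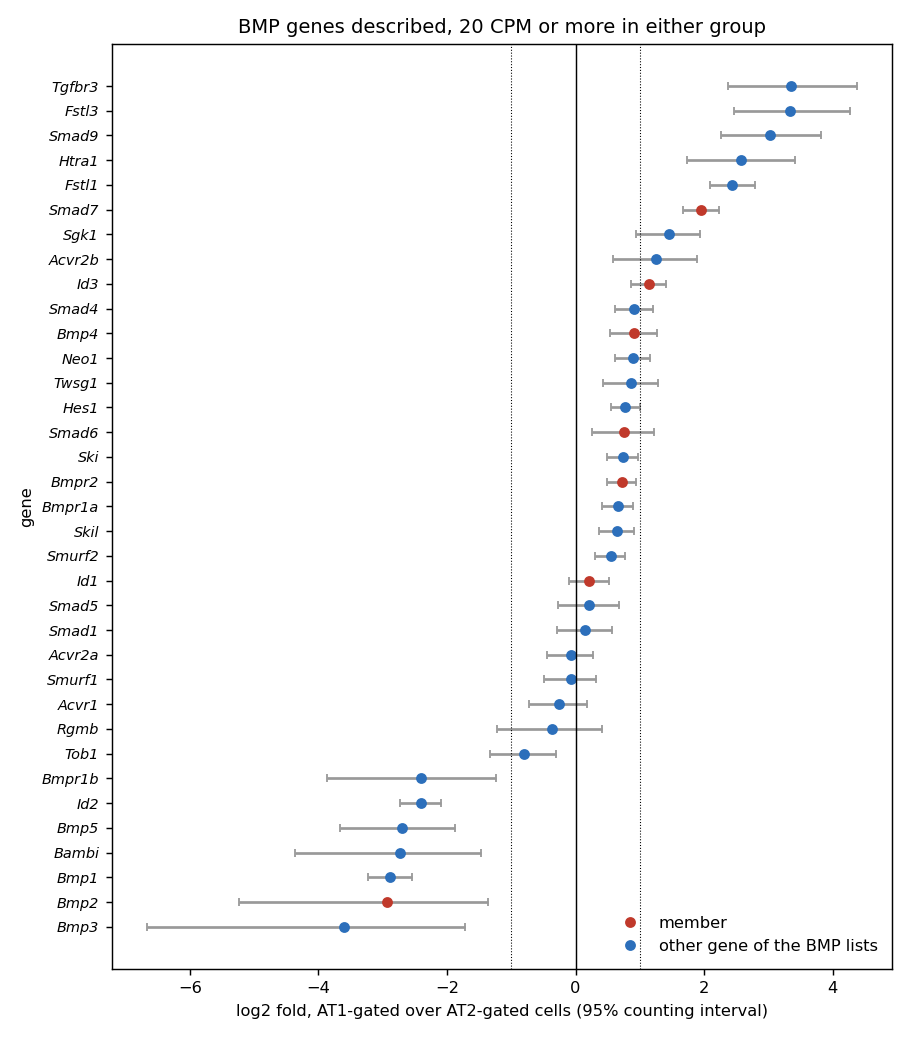
Log2 fold, AT1-gated over AT2-gated cells, for the BMP genes described with 20 CPM or more in either type (rows), with conditional binomial 95% intervals; members of the 10-gene set are red and other genes of the BMP lists blue, and dotted lines mark 2-fold. The modulator genes Fstl3, Htra1 and Fstl1 lie to the right, and the ligands Bmp2, Bmp3 and Bmp5 and the protease gene Bmp1 to the left.

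The genes with the most similar profile to each member were read from Pearson correlations of log2(CPM + 10) across 15 groups, among 11365 genes. These groups share libraries, and the endothelial gates dominate the range, so the values are a description only. Within the set, Bmpr2 and Smad6 were each among the other's 3 closest genes (r = 0.981). Acvrl1 was closest to Nostrin, an endothelial gene that regulates nitric oxide synthase (r = 0.989), and to the VEGF receptor gene Flt1. Eng was close to the endothelial gene Egfl7 (r = 0.990). Bmp6 was closest to Zfp423 (r = 0.996), with Fat4 and Tril next. Bmp4 was close to Gata6, a transcription factor gene of lung epithelium (r = 0.964). Smad7 was closest to Ssbp3 (r = 0.919) and Id1 to Reep3 (r = 0.931), and Id3 to Ece1, the endothelin-converting enzyme gene (r = 0.935). Bmp2 had the weakest best match, Pygo1 (r = 0.891), on few UMIs.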

How the data were processed

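The authors deposited 1 table of raw counts of UMIs for every cell. Cell Ranger 1.3.1 and mm10 are named per the submitters' processing notes, while for intronic reads and strand the settings were not given in the sources used here. Cells look filtered before deposit, since the lowest gene number was 800 and the highest mitochondrial share 9.99%. Counts were summed per gated group and divided by the group's total. A cell took the first gate it passed, in the order endothelium, AT1, AT2, alveolar macrophage, monocyte, T and Dppa5a; 173 cells passed more than 1. The gates after endothelium needed 3 UMIs of Rtkn2 (AT1), 3% of UMIs in Sftpc (AT2), 2 of Ear1 and Marco, 3 of Ly6c2 and F13a1 or 2 of Ace and Adgre4 (monocyte), 2 of Cd3e and Trac (T) and 10 of Dppa5a. Each endothelial sub-gate needed 2 UMIs of its genes. Other cells were gated at 3% of UMIs in S100a8 and S100a9 (neutrophil), 10 of C1qa, C1qb and C1qc, 2 of Ncr1 and Klrb1c (natural killer) and 2 of Cd79a and Ms4a1 (B). Doublets were left in the main values, and free RNA was not subtracted. Folds were called at 4-fold for endothelium and at 2-fold between close types, from 20 CPM, with no test, because 0 of 8 libraries could be matched to cells. The planned edgeR comparison of hyperoxia with air was therefore not run. Zero counts were bounded at 3 UMIs per group. Cells were thinned to 2000 UMIs for shares. The text names the 10 genes, the fixed lists of further BMP genes and the 3 genes closest to each member. 1 listed gene is not reported here. The 10 genes and all lists were chosen with earlier results of these data known. The fold calculation was checked on simulated Poisson counts with planted folds. These hold no spread between cells, stretches or pups, so the check covers the arithmetic and counting error only. Python 3.11.15, NumPy 2.4.6, SciPy 1.17.1, pandas 2.3.3 and matplotlib 3.10.9 were used, with Scrublet in scanpy 1.11.5.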

Additional observations from a re-analysis of the deposited data

How the results depend on the processing

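No paired analysis was possible because no label ties cells to the numbered libraries, so the comparison of hyperoxia with air could not be run and pups, libraries and oxygen cannot be separated in any value. The 9 genes at least 4-fold higher in endothelium stayed 9 under every alternative tried (other totals, each cell weighted alike, no CPM minimum, doubled gates, cells of several gates or 193 likely doublets left out, each stretch left out). In the main setting 5 of them passed the CPM minimum only through endothelium, so this count carries little. The count of members highest in endothelium was 8, and 7 to 8 with a stretch left out. It includes Smad7, whose order against AT1-gated cells cannot be told. No such share over all genes is given beside it, so it carries little. Car4+Ednrb against Gpihbp1+Plvap+Aplnr cells gave 3 members past 2-fold, and 3 to 5 with a stretch left out (5 without stretch 1). Gja5+Bmx against Gpihbp1+Plvap+Aplnr cells gave 3, and 1 to 4 with a stretch left out (1 without stretch 7). AT1 against AT2 gave 3, and 2 to 4 with a stretch left out. It gave 5 with each cell weighted alike, 5 with no CPM minimum, 6 with doubled gates and 6 without cells of several gates; the cause was not tested. Of 840 alternative values of single genes, 764 stayed inside the counting interval, 76 moved out of it and 0 called values changed sign. Between Car4+Ednrb and Gpihbp1+Plvap+Aplnr cells, doubled gates gave log2 folds of 0.21 for Eng and 0.16 for Id3, against -0.02 and -0.25. Alternatives added after the data were seen (endothelial cells rich in S100a8 and S100a9, lymphatic-gated cells or Dppa5a-gated cells left out) moved no count by more than 1.5 times. Depth limits the smallest groups, where 3 UMIs are 15.8 CPM (46 Gja5+Bmx cells) and 16.1 CPM (44 lymphatic-gated cells).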
